A study of Mus musculus with 12 samples.

Results

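Glypican-3 and 8 genes used as markers of the mesothelium were followed across 12 mouse hearts on Affymetrix arrays, each array carrying RNA of 1 mouse. The genes are Gpc3, Rarres2, Msln, Upk3b, Upk1b, Wt1, Krt8, Krt18 and Krt19, which are 9 of the 18193 genes that the array annotation names with a probe set of their own. A probe set is a group of short probes that together give 1 signal for a transcript. All 17 probe sets that name 1 of the 9 genes alone were taken, dim ones included, and no probe set names 1 of them together with another gene. The genes were chosen with results of these data in view, so that their signals and differences between genotypes are given as a description, and the errors, intervals and counts from the fit that stand beside them are used to support nothing.

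The mice were C57BL/6, aged 8 to 9 weeks, and fell into 3 genotypes. There were 3 ILKR211A Tg hearts (hearts 7, 9 and 12), 3 ILKS343D Tg hearts (hearts 2, 4 and 5) and 6 WT hearts from littermates (hearts 1, 3, 6, 8, 10 and 11). Both transgenes are mutant forms of the human gene for integrin-linked kinase (ILK), an adaptor at the adhesions that tie heart muscle cells to the matrix, and were overexpressed specifically in the heart according to the methods of the study. R211A lies in the pleckstrin homology domain and S343D is an activating substitution. All 12 mice are otherwise of the same strain and age, and the labels name no surgery or agent, whereas the methods describe hybridizations with and without coronary ligation. The WT hearts carry 2 series of title numbers, a first set (hearts 1, 3 and 6) and a second set (hearts 8, 10 and 11), and no label ties either set to a transgenic line, so that all 6 served as controls for both lines. The 2 comparisons with WT therefore share their control hearts. The ILKS343D Tg hearts and the first WT set have heart numbers from 1 to 6. The ILKR211A Tg hearts and the second WT set have numbers from 7 to 12. Between the 2 lines, genotype thus cannot be told apart from the range of heart numbers. Where that range is used as a block, its effect is read from the WT hearts alone.

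The mesothelium is the single layer of flattened, keratin-containing cells that lines the body cavities, and on the heart surface it is called the epicardium. Its cells carry mesothelin and uroplakins, and in the embryo the Wt1-positive epicardium gives rise to fibroblasts and smooth muscle of the coronary vessels. Glypican-3 is a heparan sulfate proteoglycan held to the cell surface by a lipid anchor, where it binds Hedgehog and Wnt ligands, and its human gene is mutated in an overgrowth syndrome.

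The labels and arrays were checked first. Ilk signal was between 8223 and 9553 in ILKR211A Tg hearts, between 3258 and 4016 in ILKS343D Tg hearts and between 551 and 657 in WT hearts, so that no groups overlapped. Heart 1, a WT heart, is the only one labelled male and the only one whose RNA is said to come from the left ventricle. Its Xist signal of 718 lay among the 703 to 864 of all hearts, which goes against that sex label. Log2 signals of any 2 arrays correlated with r between 0.933 and 0.945 over 45037 probe sets, and the median signal of an array was between 41.5 and 49.1. Across all tested probe sets, limma called 46 of 22519 changed in ILKR211A Tg against WT, 1 in ILKS343D Tg against WT, 36 in ILKR211A Tg against ILKS343D Tg, and 3 in both lines against WT, at an adjusted p under 0.05.

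Glypican-3 was measured by 1 probe set (1450990_at). Its signal was 56.9, 38.2 and 44.9 in ILKR211A Tg hearts 7, 9 and 12. In ILKS343D Tg hearts 2, 4 and 5 it was 85.0, 80.5 and 60.7, and in the 6 WT hearts the lowest, median and highest signals were 37.3, 40.6 and 50.8. All 3 ILKS343D Tg hearts thus lay above every WT heart and above every ILKR211A Tg heart, whereas the ILKR211A Tg hearts lay among the WT hearts apart from heart 7, which was higher than any of them. Over all probe sets, 1.18% were higher in every ILKS343D Tg heart than in every WT heart, and 7.33% were lower in every ILKR211A Tg heart than in every ILKS343D Tg heart. Mean signals were 46.7 ± 9.48 in ILKR211A Tg, 75.4 ± 12.9 in ILKS343D Tg and 42.7 ± 5.66 in WT (SD, n = 3, 3 and 6). On the log2 scale Gpc3 was 0.81 higher in ILKS343D Tg than in WT (SE 0.18, 95% interval of the fit 0.42 to 1.20, 1.76-fold). The difference of ILKR211A Tg from WT was 0.12 (SE 0.18, interval -0.27 to 0.51), within the spread between hearts, and that of ILKR211A Tg from ILKS343D Tg was -0.70 (SE 0.21, interval -1.15 to -0.25). Ordered by level, ILKS343D Tg stood first, and ILKR211A Tg and WT below it did not differ beyond their spread. The signal lies close to the filter on dim probe sets, which was set at 43.5, and a heart with fewer cells that hold a transcript cannot be told apart from one with less of that transcript per cell in such bulk RNA.

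Leaving out each heart in turn kept the Gpc3 difference between ILKS343D Tg and WT between 0.72 and 0.96, and the difference between ILKR211A Tg and WT between -0.04 and 0.25. Against the WT hearts in the same range of heart numbers, the differences were 0.14 for ILKR211A Tg and 0.79 for ILKS343D Tg. The first and second WT sets differed by 0.04 (SE 0.22) for Gpc3, with means of 43.3 ± 4.84 and 42.2 ± 7.47 (SD, n = 3 each).

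The promoter of Gpc3 is shown because it stands apart in base composition from those of the other members that could be read. RefSeq promoters of GRCm38.p6, 250 bases before to 50 bases after the start of the gene, were matched for 4 of the 9 genes, namely Gpc3, Upk3b, Krt8 and Krt18. Capitals mark the GC box GGGCGG, the TATA motif TATAAA and the TEAD motif GGAATG on either strand, and overlapping matches on both strands run together.
Gpc3, chrX:52613925-52614224, minus strand: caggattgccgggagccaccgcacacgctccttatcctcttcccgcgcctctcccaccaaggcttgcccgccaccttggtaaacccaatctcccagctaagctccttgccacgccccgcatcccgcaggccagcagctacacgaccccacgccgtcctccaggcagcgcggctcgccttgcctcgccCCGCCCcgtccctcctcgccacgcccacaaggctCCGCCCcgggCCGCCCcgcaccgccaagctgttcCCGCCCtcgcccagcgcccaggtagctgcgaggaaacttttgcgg
Upk3b, chr5:136038246-136038545, plus strand: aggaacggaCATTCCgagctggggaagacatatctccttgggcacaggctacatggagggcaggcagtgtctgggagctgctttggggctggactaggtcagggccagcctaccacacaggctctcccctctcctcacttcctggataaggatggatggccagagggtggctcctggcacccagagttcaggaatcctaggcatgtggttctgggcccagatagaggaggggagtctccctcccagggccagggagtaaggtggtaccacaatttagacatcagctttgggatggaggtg
Krt8, chr15:102004293-102004592, minus strand: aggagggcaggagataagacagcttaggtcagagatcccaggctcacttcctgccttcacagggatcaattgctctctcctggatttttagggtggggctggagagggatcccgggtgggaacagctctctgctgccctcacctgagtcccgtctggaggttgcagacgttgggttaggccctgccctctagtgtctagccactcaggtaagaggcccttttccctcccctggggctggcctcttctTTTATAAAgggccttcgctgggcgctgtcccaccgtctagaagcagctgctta
The Gpc3 promoter was 70.7% G and C with 30 CG dinucleotides, against medians of 52.7% and 7 over 32851 promoters. It held 4 GC boxes, a motif found in 35.7% of all promoters. The Upk3b promoter was 58.7% G and C with 2 CG dinucleotides, and held 1 GGAATG, which 14.7% of all promoters hold. In the Krt8 promoter, at 58.0% G and C, TATAAA was found on each strand at overlapping positions, and 13.6% of all promoters hold it. These matches begin at -3 and -1 from the annotated start, and thus lie across it. The Krt18 promoter (61.3% G and C, 17 CG dinucleotides) held none of the 3 motifs. The matches describe letters only, and no factor was measured. In the gene order of chromosome X, Gpc4 is the neighbouring glypican gene of Gpc3, and Krt8 and Krt18, which encode partner keratins, are neighbours on chromosome 15.

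**Figure D1:**
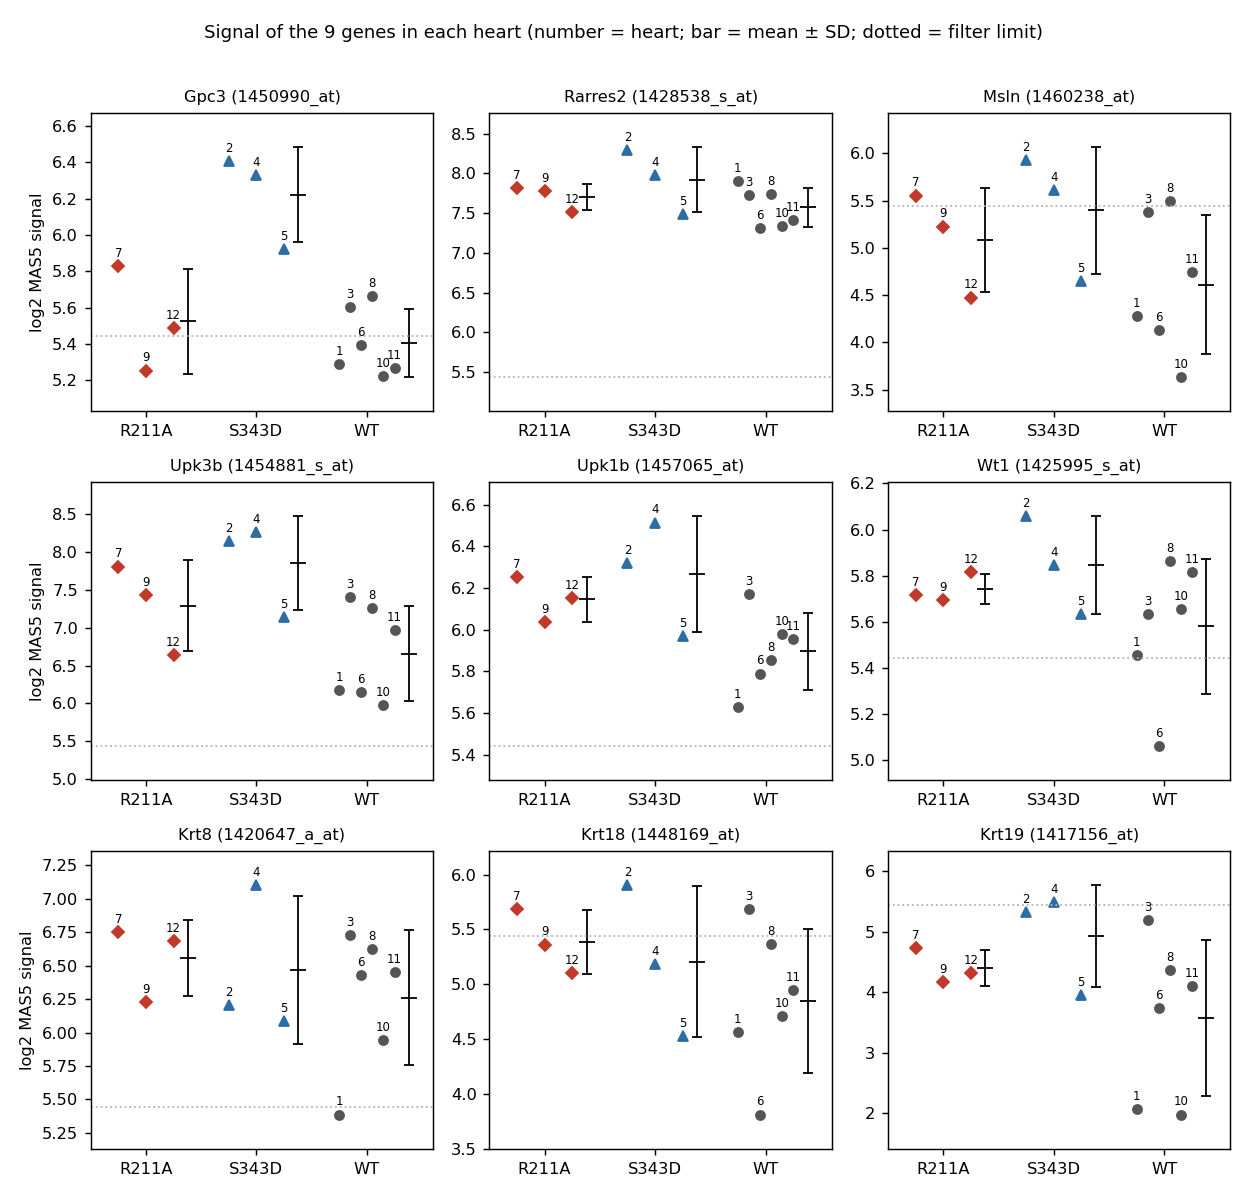
Log2 signal of each of the 9 genes (brightest probe set) in each heart, with ILKR211A Tg, ILKS343D Tg and WT from left to right, heart numbers beside the points, mean ± SD as bars (n = 3, 3 and 6) and the filter limit of 5.44 dotted. Gpc3 is above every WT heart in all 3 ILKS343D Tg hearts, whereas the other genes overlap between genotypes, with hearts 2 and 4 often highest.

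Rarres2 encodes chemerin, a secreted attractant of immune cells that is also made by fat and mesothelium, and was read by 3 probe sets. On 1437902_s_at the signal was 162, 162 and 148 in ILKR211A Tg hearts 7, 9 and 12 and 234, 238 and 183 in ILKS343D Tg hearts 2, 4 and 5, against a lowest, median and highest signal of 92.4, 146 and 161 in WT. Again all 3 ILKS343D Tg hearts were above all WT hearts and above all ILKR211A Tg hearts, with a difference of 0.66 from WT (SE 0.15, interval 0.34 to 0.99). The probe set with the highest mean, 1428538_s_at, gave 225, 218 and 183 in ILKR211A Tg, 313, 253 and 180 in ILKS343D Tg, and 159, 191 and 239 as lowest, median and highest in WT. On it heart 5 fell among the WT hearts, the groups overlapped, and the difference between ILKS343D Tg and WT was 0.35 (SE 0.17). The dim 1425091_at had its highest signal, 49.4, in ILKR211A Tg heart 7 and differed from WT by 0.41 in ILKR211A Tg and by 0.07 in ILKS343D Tg (SE 0.24 each). The 2 brighter probe sets correlated with r = 0.685 over the 12 hearts, whereas the dim one correlated with them at 0.183 and -0.111.

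The surface proteins came next. Msln encodes mesothelin, a lipid-anchored glycoprotein of mesothelial cells, and its only probe set was below the filter. Its signal was 46.9, 37.4 and 22.2 in ILKR211A Tg hearts 7, 9 and 12 and 60.8, 48.9 and 25.04 in ILKS343D Tg hearts 2, 4 and 5, against 12.4, 23.1 and 45.1 as lowest, median and highest in WT. Hearts 7, 2 and 4 were above every WT heart, whereas hearts 9, 12 and 5 lay within the WT range, and the differences from WT were 0.47 in ILKR211A Tg and 0.79 in ILKS343D Tg (SE 0.43 each).

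Upk3b encodes uroplakin 3b, a membrane protein of urothelium and mesothelium. On 1454881_s_at, its brightest probe set, the signal was 224, 173 and 99.7 in ILKR211A Tg hearts 7, 9 and 12. It was 283, 308 and 141 in ILKS343D Tg hearts 2, 4 and 5, and 63.3, 99.0 and 170 as lowest, median and highest in WT. Hearts 7, 9, 2 and 4 were above every WT heart, whereas hearts 12 and 5 were not, so that both lines overlapped with WT. The differences from WT were 0.63 in ILKR211A Tg (SE 0.35, interval -0.12 to 1.39) and 1.19 in ILKS343D Tg (SE 0.35, interval 0.43 to 1.95), and the lines differed by -0.56 (SE 0.41), within the spread. The second probe set, 1434237_at, ranged more widely. It gave 119, 97.1 and 46.2 in ILKR211A Tg and 161, 180 and 44.2 in ILKS343D Tg, against 8.26, 15.2 and 96.2 in WT. Its WT signals spanned 11.6-fold, hearts 3 and 8 being high (96.2 and 69.0) and the other WT hearts between 8.26 and 19.5, and its differences from WT were 1.92 in ILKR211A Tg and 2.34 in ILKS343D Tg (SE 0.75 each). The 2 Upk3b probe sets followed each other over the hearts with r = 0.884.

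Upk1b encodes a tetraspanin that pairs with type 3 uroplakins, and had 4 probe sets, 2 of them dim. On 1457065_at the signal was 76.2, 65.6 and 71.0 in ILKR211A Tg hearts 7, 9 and 12 and 79.8, 91.4 and 62.6 in ILKS343D Tg hearts 2, 4 and 5, against 49.5, 59.9 and 72.0 in WT. WT heart 3 reached into the range of both lines, and the differences from WT were 0.25 in ILKR211A Tg and 0.37 in ILKS343D Tg (SE 0.16 each). Over its 4 probe sets the difference from WT was between 0.25 and 1.15 in ILKR211A Tg and between 0.37 and 1.98 in ILKS343D Tg, and the probe sets correlated with each other at r between 0.343 and 0.703.

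Wt1, a zinc finger transcription factor of the epicardium and of podocytes, had overlapping signals in all 3 genotypes. It gave 52.6, 51.8 and 56.4 in ILKR211A Tg and 66.6, 57.5 and 49.7 in ILKS343D Tg, against 33.5, 50.04 and 58.3 in WT. Only heart 2 exceeded all WT hearts, and the differences from WT, 0.16 in ILKR211A Tg and 0.26 in ILKS343D Tg (SE 0.19 each), were within the spread.

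The keratins Krt8, Krt18 and Krt19 form the intermediate filaments of simple epithelia. Krt8 on 1420647_a_at had signals of 107, 75.1 and 103 in ILKR211A Tg and 73.9, 137 and 68.1 in ILKS343D Tg, against 41.9, 86.8 and 106 in WT. Here heart 2 was below the WT median, unlike on the uroplakin probe sets, and heart 4 was highest. The differences from WT were 0.30 in ILKR211A Tg and 0.21 in ILKS343D Tg (SE 0.28 each). The 2 dim Krt8 probe sets, with signals between 2.02 and 23.2, correlated with it at r = 0.163 and 0.184. Krt18, the partner of Krt8, was dim at 51.6, 41.1 and 34.3 in ILKR211A Tg and 59.8, 36.4 and 23.1 in ILKS343D Tg, against 14.1, 28.5 and 51.5 in WT. Its differences from WT were 0.54 in ILKR211A Tg and 0.36 in ILKS343D Tg (SE 0.38 each). Krt19 was dim too, at 26.7, 17.9 and 20.0 in ILKR211A Tg and 40.3, 44.8 and 15.5 in ILKS343D Tg, against 3.93, 15.3 and 36.4 in WT, whose signals spanned 9.26-fold. Its differences from WT were 0.83 in ILKR211A Tg and 1.35 in ILKS343D Tg (SE 0.65 each). In all 3 keratins the genotypes overlapped.

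Over the 17 probe sets together, the log2 difference from WT was above 0 for 17 in ILKR211A Tg and for 17 in ILKS343D Tg, where the background over all 45037 probe sets was 48.1% and 52.7%. The medians were 0.41 and 0.70, against medians within 0.01 of 0 over the tested probe sets. Between the lines, 3 of 17 were higher in ILKR211A Tg than in ILKS343D Tg (background 45.5%), with a median of -0.35 (-0.68 to -0.13 with each heart left out), and with both lines pooled 17 of 17 were above WT (background 49.6%). Groups did not overlap for 2 of 17 probe sets in ILKS343D Tg against WT (Gpc3 and Rarres2 1437902_s_at, all higher; background 1.18%), for the same 2 in ILKR211A Tg against ILKS343D Tg (all lower; background 7.33%), and for none in ILKR211A Tg against WT (background 1.48% higher and 1.83% lower). Of the 9 member probe sets that passed the filter, limma called 0 in each comparison, with 1, 5, 2 and 5 at an unadjusted p under 0.05 in ILKR211A Tg against WT, ILKS343D Tg against WT, ILKR211A Tg against ILKS343D Tg and both lines against WT. Of all 22519 tested probe sets, 7.51%, 3.98%, 8.45% and 4.65% had such a p in these comparisons. The background of calls was 0.204%, 0.00444%, 0.16% and 0.0133% of the tested probe sets in these 4 comparisons. As the genes were chosen on these arrays, nothing is read from these counts.

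**Figure D2:**
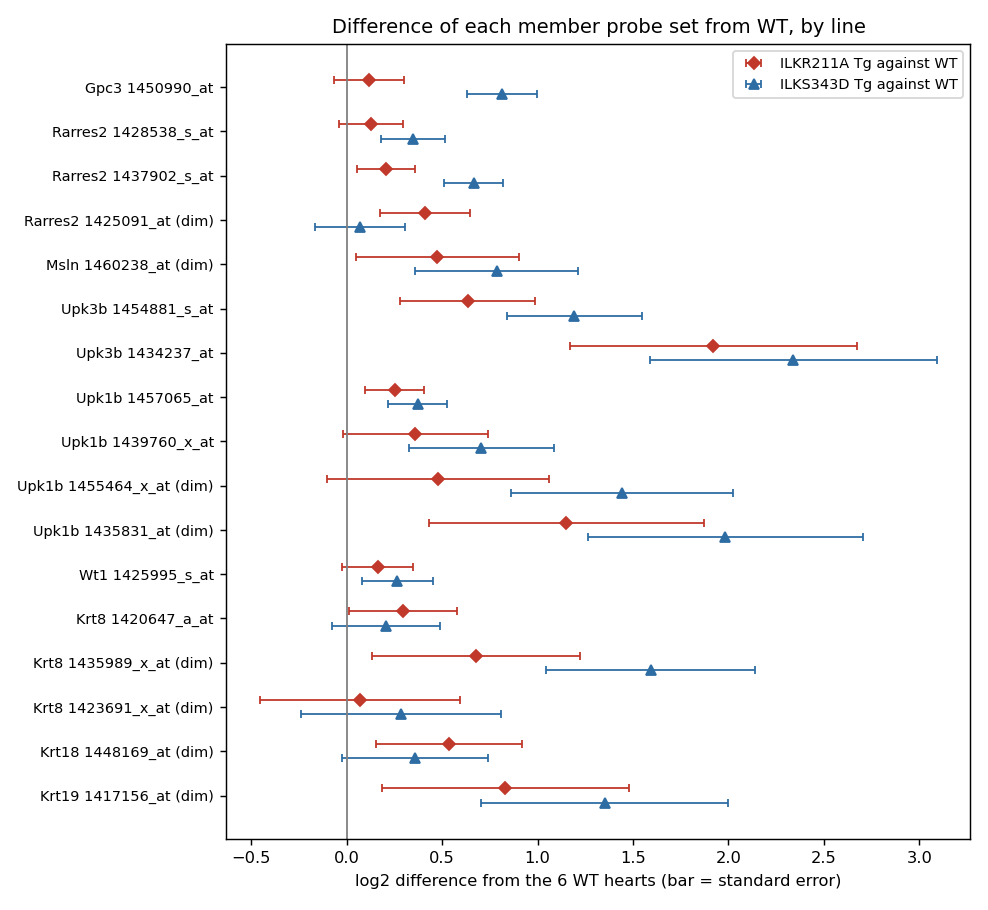
Log2 difference of ILKR211A Tg (diamonds) and ILKS343D Tg (triangles) from the 6 WT hearts for each of the 17 probe sets, with the standard error of the fit as bars and probe sets below the filter marked dim. All points lie above 0, and Gpc3 shows the widest gap between the lines relative to its errors.

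The differences between genotypes rested on unequal hearts within each genotype. Of the 17 probe sets, heart 2 was among the 3 highest hearts for 15 and heart 4 for 13, whereas heart 5, of the same ILKS343D Tg genotype, was so for 4. Within ILKR211A Tg, heart 7 was among the 3 highest for 8, heart 9 for 1 and heart 12 for 0. Among WT hearts, heart 3 was among the 3 highest for 6, and hearts 1, 6, 10 and 11 were among the 3 lowest for 11, 12, 9 and 7. Over all 45037 probe sets a heart was among the 3 highest for 21.3% to 30.4% and among the 3 lowest for 21.1% to 32.3%, so that the 4 of 17 for heart 5 is near what all probe sets give. The median deviation of the 17 probe sets from their mean over all hearts was 0.40, 0.08 and -0.10 in ILKR211A Tg hearts 7, 9 and 12. It was 0.83, 0.69 and -0.02 in ILKS343D Tg hearts 2, 4 and 5, and between -0.51 and 0.35 in WT hearts. Heart 5 thus stood within the WT range and the other ILKS343D Tg hearts above it. Without heart 5 the median difference of ILKS343D Tg from WT over the 17 probe sets was 0.96, and leaving out each heart in turn gave 0.52 to 0.96 for ILKS343D Tg and 0.24 to 0.68 for ILKR211A Tg.

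The members moved together from heart to heart. All 36 pairs of the 9 genes had a Pearson r above 0 over the 12 hearts (median 0.669, range 0.050 to 0.947), and after removal of the genotype means the median was 0.604 with a range from -0.06 to 0.96. The closest pair was Msln with Upk3b (r = 0.947, rho = 0.958). The genes of a pair were read from the same RNA and array, and the genes were chosen together, so these values describe the 12 hearts only. With Gpc3, Upk3b had r = 0.800 and rho = 0.692, Upk1b had r = 0.722, Msln 0.708, Krt19 0.704, Rarres2 0.679, Wt1 0.508, Krt18 0.457 and Krt8 0.415. Without hearts 2 and 4, which lie farthest from the median of Gpc3, r with Gpc3 was 0.597 for Upk3b, 0.389 for Upk1b, 0.527 for Msln, 0.556 for Krt19, 0.209 for Rarres2, 0.187 for Wt1, 0.281 for Krt18 and 0.420 for Krt8, so that it was lower for each gene except Krt8.

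A list of 22 other mesothelial and epicardial markers, of which 21 had a probe set and 12 passed the filter, holds genes that are not members, although it too was made with earlier results known. None of the 12 was called by limma in any comparison, with 0, 5, 1 and 4 at an unadjusted p under 0.05 in ILKR211A Tg against WT, ILKS343D Tg against WT, ILKR211A Tg against ILKS343D Tg and both lines against WT. The background of such p over all tested probe sets was 7.51%, 3.98%, 8.45% and 4.65% in these comparisons. Of the 21, 16 in ILKR211A Tg and 18 in ILKS343D Tg were higher than in WT (background 48.1% and 52.7%). Between the lines, 3 of 21 were higher in ILKR211A Tg (background 45.5%). The median difference of the 21 was 0.22 in ILKR211A Tg and 0.41 in ILKS343D Tg against WT, and -0.23 between the lines. With each heart left out it was 0.09 to 0.36 in ILKR211A Tg against WT and -0.43 to -0.17 between the lines, and between the lines it was -0.01 with the range of heart numbers as a block. Lrrn4, a leucine-rich repeat membrane protein, had 75.0, 83.8 and 59.2 in ILKR211A Tg hearts 7, 9 and 12. In ILKS343D Tg hearts 2, 4 and 5 it had 177, 169 and 55.6, against 33.1 to 80.2 in WT. Hearts 2 and 4 stood apart and heart 5 fell within WT, and the difference of 1.31 from WT (SE 0.33) did not pass limma's test over all probe sets (adjusted p = 0.995, unadjusted p = 0.00139).

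Gpm6a, a membrane glycoprotein, had 97.7, 72.2 and 52.9 in ILKR211A Tg and 152, 156 and 67.7 in ILKS343D Tg, against 33.8 to 92.4 in WT. It differed by 1.14 between ILKS343D Tg and WT (SE 0.34, limma adjusted p = 0.995). Efemp1, an extracellular matrix protein, differed by 0.73 (SE 0.28, adjusted p = 0.995) in the same comparison. Igfbp6, which binds IGF2, averaged 208 ± 52.2 in ILKR211A Tg, 240 ± 75.3 in ILKS343D Tg and 156 ± 41.1 in WT (SD, n = 3, 3 and 6). Its difference between ILKS343D Tg and WT was 0.60 (SE 0.24, limma adjusted p = 0.995).

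**Figure D3:**
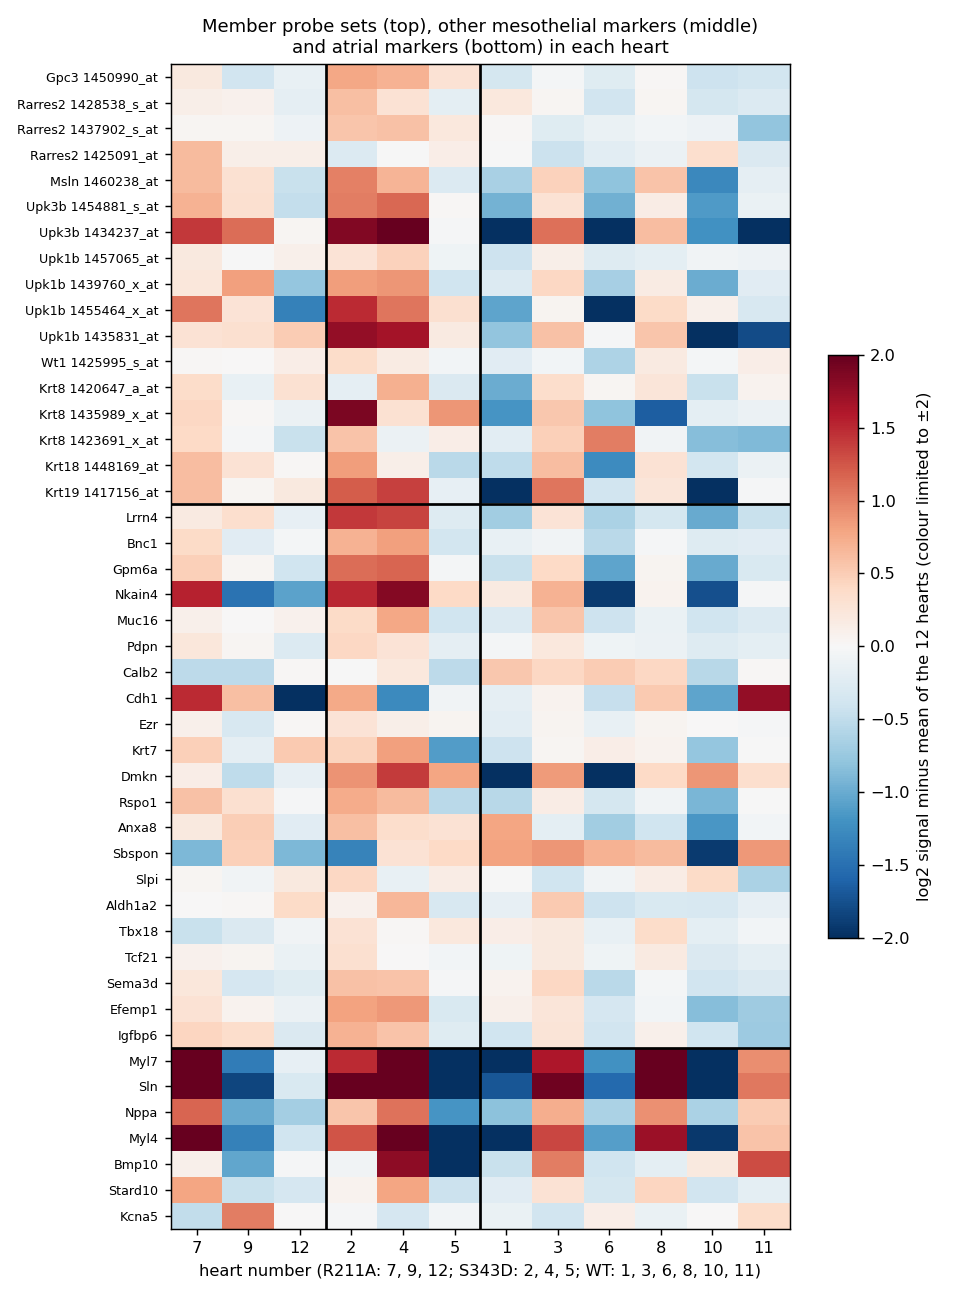
Log2 signal minus the mean of the 12 hearts for the 17 member probe sets (top), 21 other mesothelial and epicardial markers (middle) and 7 atrial markers (bottom), with hearts ordered as ILKR211A Tg, ILKS343D Tg and WT and colour limited at 2 log2 units. Hearts 2 and 4 are high in the upper blocks, hearts 6 and 10 low, and heart 5 is near the mean in the upper blocks but low for most atrial markers.

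By heart, the median of the other mesothelial list followed that of the members with r = 0.961 (rho = 0.951, and 0.916 without hearts 2 and 4). With Gpc3 the 21 markers had a median r of 0.642, and 9 of them reached 0.7. They ranged from -0.21 for Sbspon to 0.85 for Gpm6a. Calb2 (0.001), Cdh1 (0.006) and Slpi (0.281) did not run closely with Gpc3 either, and of these and Sbspon only Slpi passed the filter. Over all 22518 other tested probe sets the median r with Gpc3 was 0.02, and 1.30% reached 0.7. With Upk3b the median of the 21 was 0.731 (range -0.14 to 0.96), and 11 reached 0.7, against 1.33% of all tested probe sets. The lists for other cell types lay lower. Medians for Gpc3 were 0.473 over 7 atrial markers, 0.427 over 10 fibroblast markers and 0.180 over 9 macrophage markers. They were 0.09 over 7 endothelial markers and -0.38 over 7 cardiomyocyte markers. With Upk3b the atrial median was 0.66, below the 0.731 of the other mesothelial list.

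Atrial markers also varied from heart to heart with the members, and their part in the result was not tested. The list holds 7 genes, all of which passed the filter and none of which was at 0, and limma called 0 of 7 in each comparison, with 0 at an unadjusted p under 0.05. Its summed signal was between 3503 and 21346 in ILKR211A Tg, between 2497 and 22271 in ILKS343D Tg and between 3294 and 16959 in WT. Myl7, the atrial myosin light chain, had 4910, 315 and 739 in ILKR211A Tg hearts 7, 9 and 12. It had 2326, 4709 and 63.6 in ILKS343D Tg hearts 2, 4 and 5, and 131, 971 and 3707 as lowest, median and highest in WT. Each genotype thus held hearts with high and with low Myl7, and hearts 7, 2, 4, 3 and 8 were the 5 highest.

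Log2 Myl7 and Upk3b correlated over the 12 hearts with r = 0.685 (rho = 0.664, and 0.780 without hearts 5 and 1), within genotypes with r = 0.865 and over the 6 WT hearts with r = 0.957. Myl7 and Gpc3 had r = 0.473 over all hearts (rho = 0.503, and 0.705 without hearts 5 and 1) and 0.867 within genotypes. Within genotypes, r with Gpc3 was also 0.881 for Myl4, 0.864 for Sln and Nppa, and 0.860 for Stard10. It was 0.487 for Bmp10 and -0.69 for Kcna5. Among the members the highest were 0.751 for Msln and 0.704 for Upk3b, and the highest of the other mesothelial list was 0.780. For the medians of the 7 atrial markers and the 17 member probe sets, r was 0.621 over all hearts (rho = 0.615, and 0.662 without hearts 5 and 4), 0.850 within genotypes and 0.923 over the WT hearts. Heart 5 departed from this, with the lowest atrial median (-2.25) and a Gpc3 signal above all WT hearts. Kcna5, a potassium channel gene placed on the atrial list, ran the other way, with r = -0.49 to Gpc3. Its highest signal, 421, was in heart 9, where Myl7 was 315. Its lowest, 148, was in heart 7, where Myl7 was highest at 4910, so that Kcna5 did not mark the hearts that were high in Myl7.

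**Figure D4:**
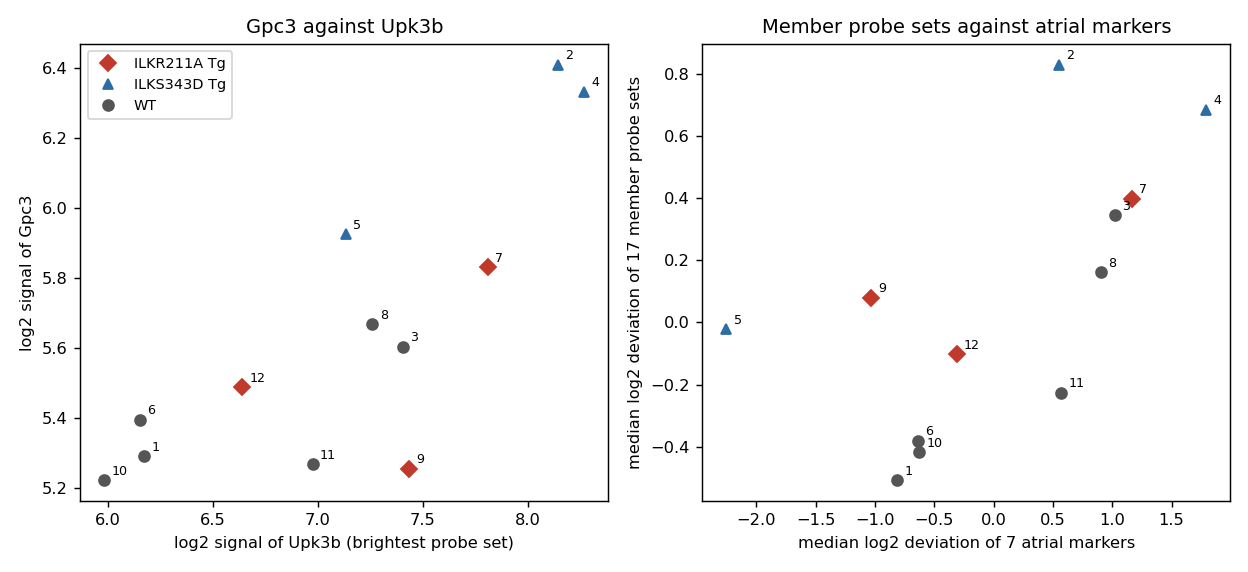
Left, log2 signal of Gpc3 against Upk3b in each heart; right, median log2 deviation of the 17 member probe sets against that of the 7 atrial markers, with genotype by marker and heart numbers beside the points. Gpc3 and Upk3b run together (r = 0.800), and on the right the ILKS343D Tg heart 5 lies at the lowest atrial median with a member median near 0.

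Genes that act with the members were read from lists. In all, 17 lists hold 133 genes that passed the filter, and limma called 0 of them in any comparison, with 5, 15, 9 and 10 at an unadjusted p under 0.05 in ILKR211A Tg against WT, ILKS343D Tg against WT, ILKR211A Tg against ILKS343D Tg and both lines against WT. These are 3.76%, 11.3%, 6.77% and 7.52% of the 133, where the background over all tested probe sets was 7.51%, 3.98%, 8.45% and 4.65%. The share was thus below the background in the comparisons of ILKR211A Tg with WT and with ILKS343D Tg. It was above the background in ILKS343D Tg against WT and in both lines against WT. Of the 15 in ILKS343D Tg against WT, 5 are other mesothelial markers, and the lists were made with earlier results known. Among the 15 tested glypicans, syndecans and glypican-processing enzymes, 0, 1, 2 and 0 had such a p in these comparisons. Sulf1, which removes 6-O-sulfates from heparan sulfate, had 158, 139 and 130 in ILKR211A Tg hearts 7, 9 and 12 and 244, 201 and 138 in ILKS343D Tg hearts 2, 4 and 5, against 113 to 180 in WT. The difference between ILKS343D Tg and WT was 0.50 (SE 0.18, limma adjusted p = 0.995). Gpc4, the glypican gene beside Gpc3 on chromosome X, averaged 241 ± 9.93 in ILKR211A Tg, 288 ± 32.3 in ILKS343D Tg and 260 ± 30.2 in WT, and the lines differed by -0.25 (SE 0.12, adjusted p = 0.591). Ext2, a subunit of the heparan sulfate polymerase, and Furin, the protease that cleaves glypican-3, had differences of 0.33 (SE 0.14) and 0.21 (SE 0.09) between ILKR211A Tg and ILKS343D Tg, with adjusted p of 0.540 and 0.575.

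Hedgehog and growth factor genes were read next. Of 10 tested Hedgehog pathway genes, 0 had an unadjusted p under 0.05 in ILKR211A Tg against WT and 1 in ILKS343D Tg against WT, where the co-receptor gene Cdon differed by 0.29 (SE 0.12, limma adjusted p = 0.995). Of 15 tested genes of the IGF axis and juvenile growth, 3 had such a p in ILKS343D Tg against WT. Igf2, a growth factor, differed by 0.53 (SE 0.19), Plagl1, an imprinted zinc finger gene, by 0.48 (SE 0.18), and Igfbp5, an IGF-binding protein, by 0.60 (SE 0.22), each with an adjusted p of 0.995. Plagl1 and Igfbp5 also ran with Upk3b over the 12 hearts, with r = 0.917 and 0.924, and with Gpc3, with r = 0.799 and 0.794, whereas Igf2 reached 0.586 with Gpc3 and 0.10 within genotypes.

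Wnt-related partners of glypican-3 showed the smallest adjusted p among these lists. Lrp6, a Wnt co-receptor, averaged 448 ± 14.7 in ILKR211A Tg, 511 ± 41.3 in ILKS343D Tg and 521 ± 24.3 in WT, a difference of -0.22 between ILKR211A Tg and WT (SE 0.07, limma adjusted p = 0.393). Wnt11, a ligand, differed by -0.49 between ILKR211A Tg and ILKS343D Tg (SE 0.20, adjusted p = 0.517), and Fzd7, a receptor, by 0.44 between ILKR211A Tg and WT (SE 0.20, adjusted p = 0.649). Cmklr1, the chemerin receptor, averaged 83.1 ± 14.8 in ILKR211A Tg, 78.0 ± 13.4 in ILKS343D Tg and 73.6 ± 16.3 in WT. Of 9 tested chemerin receptor and retinoid genes, 0 had an unadjusted p under 0.05 against WT in either line. Upk1a and Upk2, uroplakins of the urothelium, differed from WT by 0.18 (SE 0.17) and -0.06 (SE 0.34) in ILKR211A Tg and by 0.01 (SE 0.17) and -0.11 (SE 0.34) in ILKS343D Tg.

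Markers of other cells were read beside these. Of 10 fibroblast markers, 1 in ILKR211A Tg and 0 in ILKS343D Tg had an unadjusted p under 0.05 against WT, with median differences of 0.10 and 0.11. Among 7 cardiomyocyte markers the median differences were 0.00 and -0.07, and Myl2, the ventricular myosin light chain, averaged 11720 ± 654 in ILKR211A Tg, 10479 ± 946 in ILKS343D Tg and 11720 ± 770 in WT. Its difference between ILKS343D Tg and WT was -0.16 (SE 0.07, limma adjusted p = 0.995). Of the other lists, Retn, an adipocyte marker, differed by 0.68 (SE 0.31, adjusted p = 0.650) and Rgs5, a pericyte marker, by -0.17 (SE 0.07, adjusted p = 0.632) between ILKR211A Tg and WT. Retn was 126 in heart 7 alone, whereas hearts 9 and 12, at 55.6 and 61.7, lay within the 33.8 to 73.6 of WT. Cd163, a macrophage marker, differed by 0.38 (SE 0.13), Tek, an endothelial marker, by 0.24 (SE 0.08), and Slc4a1, a red cell marker, by -0.64 (SE 0.32) between ILKS343D Tg and WT, each with an adjusted p of 0.995. The lung and airway list, of which 1 of 6 genes passed the filter, summed to between 160 and 202 in ILKR211A Tg, between 164 and 200 in ILKS343D Tg and between 164 and 225 in WT.

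**Figure D5:**
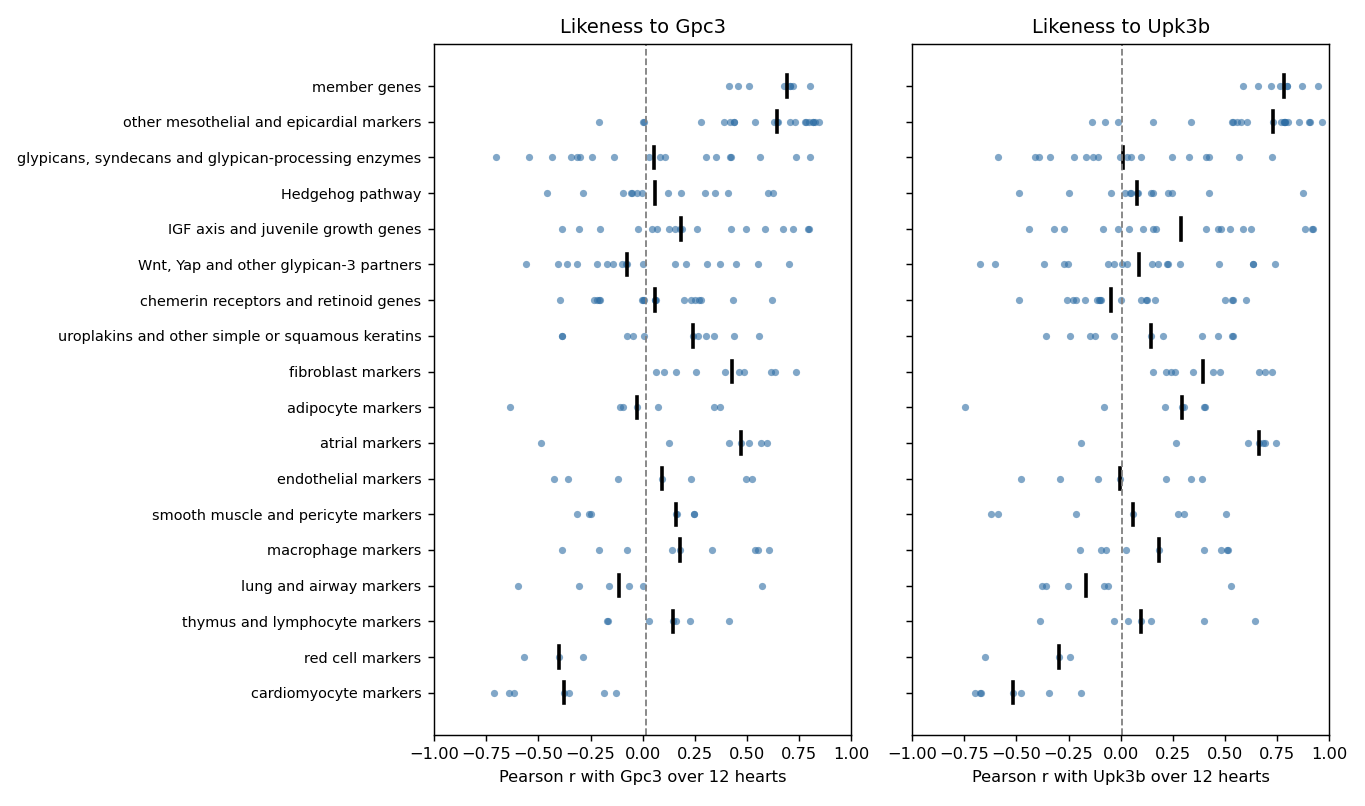
Pearson r of each listed gene with Gpc3 (left) and with Upk3b (right) over 12 hearts, with 1 row per list, a bar at the median of the list and a dashed line at the median over all tested probe sets. Members and other mesothelial markers lie highest (medians 0.692 and 0.642 with Gpc3), atrial markers follow with Upk3b, and cardiomyocyte markers lie lowest with Upk3b.

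Over all tested probe sets that name 1 gene, the patterns most like that of Gpc3 across the 12 hearts were those of Ndn, an imprinted gene (r = 0.906), Rbm39, a splicing factor (0.905), Gdi2, a regulator of Rab proteins (0.904), Sulf1 on 1436319_at (0.891), Sp1, a transcription factor (0.890), and Ddr1, a collagen receptor (0.884). Ndn had 229, 198 and 220 in ILKR211A Tg hearts 7, 9 and 12 and 272, 276 and 209 in ILKS343D Tg hearts 2, 4 and 5, against 176 to 228 in WT. It followed Gpc3 within genotypes as well (r = 0.90), while Sp1 did so less (0.606). Other tested or dim probe sets of these genes followed Gpc3 less closely, the highest being 0.663 for Ndn, 0.632 for Rbm39, 0.630 for Gdi2, 0.802 for Sulf1, -0.09 for Sp1 and 0.510 for Ddr1. Most unlike were Ctnna3, which encodes alpha-T-catenin of the intercalated disc (r = -0.94), Plpp7 (-0.89), Timm21, a mitochondrial import factor (-0.89), and Pgam1, a glycolytic mutase (-0.89). Ctnna3 on 1441560_at had 91.2, 108 and 121 in ILKR211A Tg, 73.0, 78.9 and 82.1 in ILKS343D Tg and 98.5 to 127 in WT, so that all ILKS343D Tg hearts were below all others, but its other probe set had r = 0.120 with Gpc3. These 10 genes were picked as extremes of 19495 values, and their likeness is a description.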

How the data were processed

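Left ventricle or heart RNA of 12 mice was hybridized to Affymetrix mouse expression arrays, 1 per mouse. The authors deposited MAS5 signal intensities on a linear scale, obtained with GCOS and scaled so that each array has the same trimmed mean. Which MAS5 version was used is not given in the sources used here. Precision is limited by the number of arrays.

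From these intensities, log2 was taken with nothing added. The 64 array controls were left out and 22519 of 45037 probe sets, those whose mean log2 signal reached the median of 5.44, were tested with limma 3.58.1 in R 4.3.3 (linear model on 3 genotypes, empirical Bayes with a trend, two-sided, Benjamini-Hochberg, adjusted p under 0.05). The annotation pairs 34945 probe sets with 1 gene, 932 with several and 9160 with none. A listed gene was read from its single-gene probe set with the highest mean. Genes named from the lists were taken from those called and from up to 4 of each list with the smallest p in any comparison, together with the 9 members, the 6 genes most like and 4 most unlike Gpc3, Ilk and sex-linked genes. Cmklr1, Myl7, Sln, Nppa, Upk2, Calb2, Cdh1, Sbspon and Slpi were added with their values known. Members and lists were chosen with earlier results of these data known. The 3 mice of a group are biological replicates by the design text. Title numbers were checked for pairing, with heart 2, which has none, counted as 1. Deviations of same-numbered hearts correlated between -0.20 and 0.17. Within a range of heart numbers, r was 0.09 for hearts 2 and 1, 0.15 for 4 and 3, and 0.17 for 5 and 6. It was 0.16 for hearts 7 and 8, 0.11 for 9 and 10, and 0.15 for 12 and 11. All other same-numbered pairs had r below 0. Transgenic and WT hearts of unlike title number within a range had r from -0.19 (hearts 4 and 6) to 0.02 (hearts 12 and 8). Every same-numbered pair of transgenic and WT hearts within a range thus had a higher r than these. A fit with such pairs was not run. The main fit used no pairing, so that its errors, intervals and calls take no account of one. Alternatives changed the scaling, an offset, the filter, the prior variance, array weights, blocks, the WT hearts used and each heart left out. The fit and correlations were tested on simulated data. Promoter sequences come from RefSeq (GRCm38.p6). Python 3.11.15 with matplotlib 3.10.9 drew the figures.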

Additional observations from a re-analysis of the deposited data

Results flagged for a closer look

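In WT hearts, 1 heart stood apart for 1 of the 17 probe sets examined. On Rarres2 1437902_s_at, heart 11 had a signal of 92.4, against 134 to 161 in the other 5 WT hearts, and its gap to the nearest of them was 0.667 of the whole range on the log2 scale. Chance flags about 1 in 20 such groups, so that 1 in 17 is near that rate. On the other bright Rarres2 probe set, 1428538_s_at, heart 11 had 171 and lay among the WT hearts.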

How the results depend on the processing

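Of the main results, 589 values under an alternative moved by less than the limit set and 13 moved more. No member or listed gene had been called, so that no call of these genes could change sign. The Gpc3 difference between ILKR211A Tg and WT, 0.12 as reported, was between -0.04 and 0.25 with each heart left out. The called probe sets in ILKR211A Tg against ILKS343D Tg, 36 as reported, were 5 without a trend in the prior variance, 55 with array weights, and 3 with the range of heart numbers as a block. They were 10 to 49 with each heart left out, including 10 without heart 12, 14 without heart 9 or heart 4, 16 without heart 2 and 18 without heart 5. For both lines against WT, 3 as reported, the count was 1 without a trend and 2 to 7 with each heart left out, 7 being without heart 7 and 5 without heart 9. With each heart left out, the median difference of the other mesothelial markers between ILKS343D Tg and WT was 0.34 to 0.74, the highest without heart 5, and the number of member probe sets higher in ILKR211A Tg than in ILKS343D Tg was 1 to 4, with 1 without heart 5. The causes were not tested. With the title number as a replicate block, 52 probe sets were called in ILKR211A Tg against WT and 1 in ILKS343D Tg against WT. The counts were 38 in ILKR211A Tg against ILKS343D Tg and 2 in both lines against WT, and none changed by more than 1.5 times. Each such block holds the genotypes in the same proportion, so that the Gpc3 difference of 0.81 between ILKS343D Tg and WT could not change. The unchanged difference is thus no test of pairing. The block also joins same-numbered hearts from both ranges of heart numbers, so that it does not model pairs within a range. With the range of heart numbers as a block, 2 dim probe sets, Upk1b 1435831_at and Krt8 1423691_x_at, were 0.59 and 0.81 higher in ILKR211A Tg than in ILKS343D Tg, against -0.83 and -0.22 as reported, and Upk1b 1455464_x_at and Wt1 differed by -2.03 and -0.50 in place of -0.96 and -0.10. With 16 added before log2, the dim Krt8 1435989_x_at differed by 0.52 between ILKS343D Tg and WT in place of 1.59. Low signal sets the limit, since 8 of the 17 member probe sets lie below the filter and Gpc3 lies close to it, and no detection calls were used.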
